A study of Mus musculus with 44 samples.

Results

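Ppargc1a, Ppargc1b, Pprc1 and Esrra were selected by gene symbol, and they are 4 of the 24940 genes listed in the count tables. Ppargc1a, Ppargc1b and Pprc1 encode the PGC1 coactivators PGC1α, PGC1β and PRC, and Esrra encodes the orphan nuclear receptor ERRα. RNA had been sequenced from cells labelled as bone marrow-derived macrophages (BMDMs). In the methods these were grown with macrophage colony-stimulating factor from marrow of C57BL/6 mice aged 8 to 12 weeks and kept in low serum before treatment. The 44 libraries form 22 groups of 2 and were deposited as 4 tables. Neither labels nor methods tie the 2 replicates of a group to separate animals or cultures, so p-values measure the spread between these libraries, which may be technical.

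The NCoR table holds 12 groups. Its WT cells were NCoR flox/flox, and its NKO cells were NCoR flox/flox with LysMCre, a Cre driven from the lysozyme M locus that deletes the corepressor NCoR in myeloid cells. Both genotypes received vehicle (Veh), KLA, PolyIC, IFNb or IL4 for 6 h, or RANKL for 12 h. KLA (Kdo2 lipid A) is a TLR4 agonist, PolyIC is a double-stranded RNA analog that acts through TLR3, IFNb is a type I interferon, IL4 drives alternative activation, and RANKL drives osteoclast formation. The labels call all 44 libraries BMDM, but the names of the 4 RANKL libraries read Osteoclast where the others read BMDM. The methods give RANKL for 12 h to BMDMs plated for RNA-seq. They describe a separate osteoclast culture for ChIP-seq, in another medium with no low-serum step and with longer RANKL. The names of these 4 libraries thus conflict with the methods, and which culture was used is not settled. The RGFP966 table holds wild-type cells given Veh, KLA, or KLA with RGFP966, an inhibitor of the deacetylase HDAC3. The Pgc1b table holds Pgc1b flox/flox cells without and with LysMCre, each given Veh or KLA. The TBK1i table holds wild-type cells given DMSO with Veh (DMSO_Veh), DMSO with KLA (DMSO_KLA), or KLA plus a TBK1 kinase inhibitor (TBK1i_KLA). These 3 tables record 6 h of treatment, although the library names of the Cre cells given KLA carry no time. In the methods, inhibitors were added when serum was lowered, before KLA.

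The counted transcripts were NR_132764 for Ppargc1a (mm10 chr5:51454249-51567725, minus strand, 6391 bp), NM_133249 for Ppargc1b (chr18:61298136-61400431, minus strand, 3642 bp) and NM_007953 for Esrra (chr19:6910977-6921808, minus strand, 2233 bp). Pprc1 (chr19:46056539-46072909, plus strand) was counted on NM_001346801 (5234 bp) in 3 tables and on NM_001081214 (5228 bp) in the RGFP966 table. In the GENCODE annotation, exons of Esrra share 73 bp with Trmt112 on the opposite strand and 91 bp with the microRNA gene Mir6990 on the same strand, and exons of Pprc1 share 177 bp with Ldb1 on the opposite strand. The methods describe strand-specific counting, but the command in the file headers names no strand option, so reads in these overlaps may belong to either gene.

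PGC1 coactivators do not bind DNA themselves. They dock on transcription factors such as ERRα, NRF1 and PPARs, recruit acetyltransferases and Mediator, and raise transcription of nuclear genes for mitochondrial respiration and fatty acid oxidation. ERRα recognizes its own response element and is activated by PGC1 proteins in place of a ligand. PGC1α is best known from brown fat, muscle and liver, whereas PGC1β is known in macrophages for its role in IL4-driven oxidative metabolism and in osteoclasts for mitochondrial biogenesis. PRC is a growth-regulated relative of broad expression.

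The 250 bases before the start site are shown for the 3 genes with an entry in the RefSeq promoter table (build GRCm38.p6), to set the near-silent Ppargc1a beside the expressed Pprc1 and Esrra. Letters run 5′ to 3′ on the gene's strand, and capitals mark CpG dinucleotides. The windows are chr5:51567726-51567975 for Ppargc1a, chr19:46056289-46056538 for Pprc1 and chr19:6921809-6922058 for Esrra.
Ppargc1a: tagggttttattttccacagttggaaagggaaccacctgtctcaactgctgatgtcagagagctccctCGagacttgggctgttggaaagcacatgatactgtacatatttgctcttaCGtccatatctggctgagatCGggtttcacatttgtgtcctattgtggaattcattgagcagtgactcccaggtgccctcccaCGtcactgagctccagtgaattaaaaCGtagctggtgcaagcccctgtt
Pprc1: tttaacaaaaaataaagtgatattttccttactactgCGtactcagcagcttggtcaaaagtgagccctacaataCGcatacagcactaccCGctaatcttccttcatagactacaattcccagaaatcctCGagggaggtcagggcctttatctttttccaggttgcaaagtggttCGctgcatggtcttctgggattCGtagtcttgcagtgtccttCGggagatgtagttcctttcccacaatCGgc
Esrra: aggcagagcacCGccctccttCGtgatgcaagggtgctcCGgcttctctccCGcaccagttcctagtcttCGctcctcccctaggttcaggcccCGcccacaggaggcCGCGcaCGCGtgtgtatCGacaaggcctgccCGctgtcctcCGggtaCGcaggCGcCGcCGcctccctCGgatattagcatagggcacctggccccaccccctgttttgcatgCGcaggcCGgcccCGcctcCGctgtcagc
The Esrra window held 22 CpG at 68.4% GC, the Pprc1 window 8 CpG at 45.2% GC and the Ppargc1a window 5 CpG at 48% GC. Over the 32851 promoters of the table the medians were 6 CpG and 52.4% GC. Esrra lay above both, Pprc1 above the CpG median but below the GC median, and Ppargc1a below both. Matches to 6 motifs were searched on both strands, and none was found in the 3 windows. They were an ERR element TNAAGGTCA (in 1.14% of all promoters), a CRE TGACGTCA (1.55%), an AP-1 site TGACTCA (4.46%), an E-box CACGTG (6.02%), the NRF1 motif (3.74%) and the NFkB motif (1.41%).

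Depth was 8.32 to 16.8 M gene counts per library (median 12.2 M), so that 3 counts correspond to 0.179 to 0.36 CPM, counts per 1 M gene counts. Levels are CPM scaled by TMM within each table, a scaling that takes the bulk of genes as level. TMM factors ran from 0.694 to 0.991 in the 16 libraries with KLA and from 0.763 to 1.41 in the other 28. Gene totals alone lower the median log2 fold change of all genes by 0.73, 0.77, 0.69 and 0.78 in the KLA comparisons of the NCoR, RGFP966, Pgc1b flox/flox and TBK1i tables, by 0.64 under PolyIC and by 0.11 under IFNb, and raise it by 0.37 for TBK1i_KLA against DMSO_KLA. For KLA against Veh in WT cells they called 13.8% of genes higher and 54.8% lower, against 25.4% and 32.3% with TMM. The same shares without TMM were 13.1% higher and 51.7% lower for PolyIC, 14.7% higher and 57.5% lower for KLA in the RGFP966 table, 12.2% higher and 53.7% lower for KLA in Pgc1b flox/flox cells, 14.5% higher and 55.1% lower for DMSO_KLA, 32.3% higher and 11.6% lower for TBK1i_KLA against DMSO_KLA, 14.4% higher and 53.9% lower for RGFP966_KLA against Veh and 16.0% higher and 43.6% lower for TBK1i_KLA against DMSO_Veh. 

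Library names carry date stamps. WT_KLA libraries are stamped 115 days and NKO_KLA libraries 1516 days before the vehicle libraries of their table, and RANKL libraries of both genotypes 536 days before. The 2 NKO_KLA and 8 Pgc1b libraries carry Y-linked transcripts and the other 34 carry Xist, so that for NKO_KLA genotype, date and sex cannot be told apart. The 9 macrophage markers were present in every library. Summed neutrophil markers (5 genes, all detected) reached 803 to 1189 CPM in the 4 RANKL libraries against 1.40 to 18.9 CPM elsewhere, and summed fibroblast markers (4 genes) 247 to 378 CPM against 0.0824 to 146 CPM. Summed B cell markers (4 genes) were 7.70 to 10.4 CPM against 0.241 to 3.47 CPM, and summed T cell markers (3 listed genes, with Cd3d and Cd3g at 3 counts or fewer in every library) 0.435 to 0.497 CPM against 0 to 0.223 CPM. Of 8 osteoclast markers, Calcr had at most 3 counts in every library, and the summed list was 289 to 465 CPM in RANKL libraries, within the range of 116 to 1585 CPM elsewhere. In such bulk samples fewer cells of a type and less RNA per cell cannot be told apart.

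Ppargc1a was close to silent. It had 0 counts in 29 of 44 libraries, 1 to 3 counts in 9 and more than 3 counts in 6, with a maximum of 6. All libraries together gave 45 counts in 535.73 M, or 0.0840 CPM (95% exact Poisson interval 0.0613 to 0.112 CPM, counting error only). Of those counts, 44 came from the 28 libraries without KLA and 1 from the 16 libraries with KLA, of which 15 were at 0. Ppargc1a passed the filter on low counts in no table and was not tested, so 3 of the 4 genes were tested in each. The other ERR genes, Esrrb and Esrrg, also failed the filter in every table.

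Per length, the order Esrra, Pprc1, Ppargc1b held in all 22 group means. In WT_Veh the mean RPKM values (CPM per kilobase of transcript) were 15.9 for Esrra, 6.59 for Pprc1 and 1.04 for Ppargc1b. In NKO_KLA the means of Pprc1 (5.56) and Ppargc1b (5.45) were nearly equal, with Ppargc1b slightly above Pprc1 in replicate 1. Over the 22 group means, Ppargc1b ran from 2.20 CPM in TBK1i_KLA to 28.8 CPM in WT_PolyIC (median 5.99 CPM), a 13.1-fold range. Pprc1 ran from 26.1 CPM in Veh of the RGFP966 table to 137 CPM in TBK1i_KLA (median 53.2 CPM), a 5.26-fold range. NKO_KLA was lowest instead under TMM over all 44 libraries (28.6 CPM against 30.9 CPM in that Veh group) and without TMM (20.2 against 36.8 CPM). Esrra ran from 25.0 CPM in Veh of the RGFP966 table to 101 CPM in DMSO_KLA (median 50.9 CPM), a 4.02-fold range that became 2.18-fold with gene totals alone. TBK1i_KLA thus held the lowest mean of Ppargc1b and the highest mean of Pprc1.

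With groups ranked by mean, the ranges of the 2 libraries overlapped between neighbours in 9 of 21 cases for Pprc1, in 14 of 21 for Ppargc1b and in 17 of 21 for Esrra. For Ppargc1b the top 3 groups WT_PolyIC, NKO_IL4 and WT_IL4 each overlapped the next and stood clear of NKO_KLA at 19.9 ± 0.343 CPM (SD, n = 2), while the vehicle groups of all tables overlapped their neighbours. The tables were scaled apart, and under TMM over all 44 libraries no group moved by more than 2 ranks for Ppargc1b, 3 for Pprc1 and 4 for Esrra. Without TMM, moves reached 3 ranks for Ppargc1b and 7 for both Pprc1 and Esrra, and NKO_IL4 came first for Ppargc1b.

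**Figure D1:**
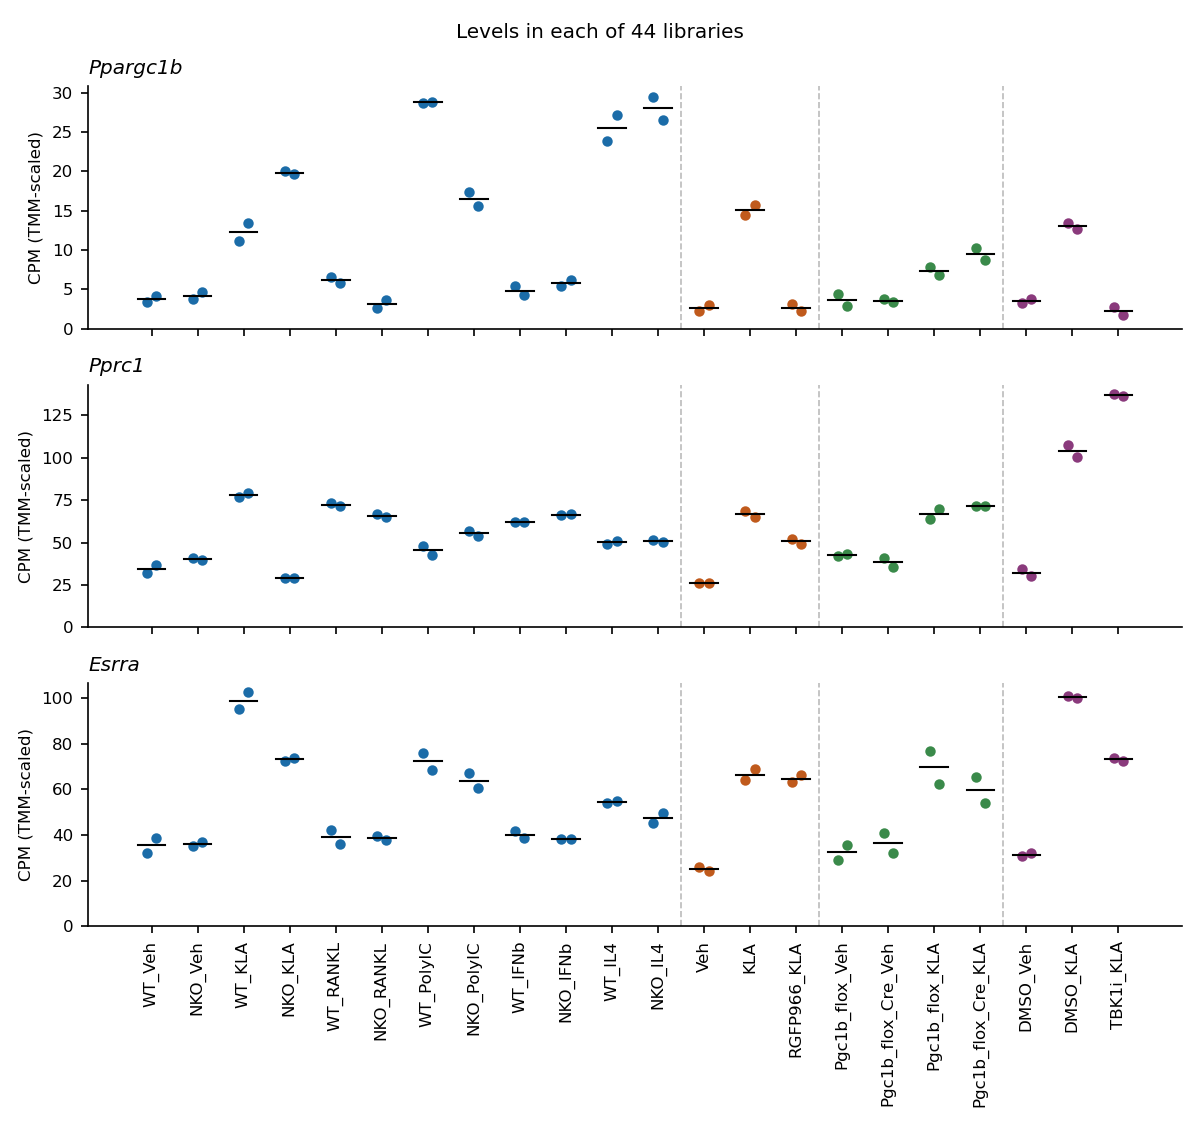
CPM of Ppargc1b, Pprc1 and Esrra in each of 44 libraries by group. Points are libraries, horizontal lines are group means and colors mark the 4 tables. Ppargc1b is high in the PolyIC and IL4 groups and in NKO_KLA. It is near vehicle levels in RGFP966_KLA and lowest in TBK1i_KLA, whereas Pprc1 peaks in TBK1i_KLA.

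The first comparison asked how each gene responded to the 5 ligands in WT cells. A call required a fold change above 1.5 together with an adjusted p under 0.05 over all genes tested. PolyIC and IL4 gave the largest rises of Ppargc1b. It was 3.44 and 4.17 CPM in WT_Veh, and PolyIC raised it to 28.7 and 28.8 CPM, 7.54-fold (log2 2.91 ± 0.16 SE, adjusted p = 5.14e-25 by edgeR's quasi-likelihood test). IL4 raised it to 23.8 and 27.1 CPM, 6.68-fold (log2 2.74 ± 0.15, adjusted p = 1.71e-23). Libraries of both groups lay far above WT_Veh. KLA gave 11.1 and 13.5 CPM, 3.23-fold (log2 1.69 ± 0.20, adjusted p = 2.37e-11), and RANKL 6.54 and 5.79 CPM, 1.62-fold (log2 0.70 ± 0.19, adjusted p = 0.000987). Under IFNb it was 5.44 and 4.26 CPM (log2 0.36 ± 0.20, adjusted p = 0.198), not called.

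The share of all 13407 tested genes called higher was 22.2% under PolyIC, 6.63% under IL4, 25.4% under KLA, 24.1% under RANKL and 4.09% under IFNb. The shares called lower were 25.0%, 6.46%, 32.3%, 19.8% and 2.37%. Ppargc1b kept its 4 calls with gene totals alone, at log2 2.27 under PolyIC, 2.74 under IL4, 0.96 under KLA and 0.79 under RANKL. Without WT_Veh replicate 1 the RANKL value was 0.56, below the fold threshold.

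Pprc1 rose under KLA, RANKL and IFNb. From 32.3 and 36.7 CPM in WT_Veh it reached 76.9 and 79.0 CPM under KLA (2.26-fold, log2 1.18 ± 0.08, adjusted p = 8.81e-21). RANKL gave 73.0 and 71.7 CPM (2.10-fold, log2 1.07 ± 0.07, adjusted p = 1.03e-20) and IFNb 62.3 CPM in both libraries (1.81-fold, log2 0.85 ± 0.07, adjusted p = 3.44e-15). IL4 (49.3 and 50.9 CPM, log2 0.54 ± 0.07, adjusted p = 1.57e-08) and PolyIC (48.1 and 42.7 CPM, log2 0.40 ± 0.08, adjusted p = 2.05e-05) stayed below the fold threshold, although neither group overlapped WT_Veh. Scaled by gene totals, Pprc1 changed by 0.45 under KLA, below the fold threshold, and turned to -0.25 under PolyIC, whereas RANKL (1.16) and IFNb (0.75) kept their calls. Without WT_Veh replicate 2, IL4 reached 0.64 and was called.

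Esrra rose under KLA, PolyIC and IL4. From 32.3 and 38.6 CPM in WT_Veh it reached 95.1 and 103 CPM under KLA (2.79-fold, log2 1.48 ± 0.08, adjusted p = 3.75e-24). PolyIC gave 76.0 and 68.6 CPM (2.04-fold, log2 1.03 ± 0.08, adjusted p = 4.06e-17) and IL4 54.1 and 54.8 CPM (1.54-fold, log2 0.62 ± 0.08, adjusted p = 4e-09). RANKL (42.3 and 36.0 CPM, log2 0.15 ± 0.08, adjusted p = 0.115) and IFNb (41.6 and 38.5 CPM, log2 0.18 ± 0.08, adjusted p = 0.113) overlapped WT_Veh and were not called. Under scaling by gene totals Esrra changed by 0.75 under KLA, still called, and by 0.39 under PolyIC, below the fold threshold. Without WT_Veh replicate 1 the IL4 value was 0.50, also below it.

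WT_KLA libraries carry an earlier date stamp than WT_Veh, so KLA and date cannot be told apart in the NCoR table. RANKL cells differ from vehicle cells in time, date stamp and the culture in their library names, which cannot be told apart from RANKL. The neutrophil, fibroblast, B cell and T cell markers given above move with them, and their part in the RANKL values was not tested.

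The balance of the expressed coactivators does not depend on library scaling. Ppargc1b made up 13.3% and 14.0% of the summed RPKM of the 3 PGC1 genes in the 2 WT_Veh libraries. Its share was 46.1% and 49.3% under PolyIC and 41.0% and 43.3% under IL4, clear of vehicle. KLA gave 17.2% and 19.7%, RANKL 11.4% and 10.4% and IFNb 11.1% and 8.91%. Over all groups the share was highest in NKO_KLA (50.0% and 49.0%), overlapping WT_PolyIC, and lowest in TBK1i_KLA (2.75% and 1.75%). Pprc1 supplied nearly all of the remainder, since Ppargc1a was near 0.

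**Figure D2:**
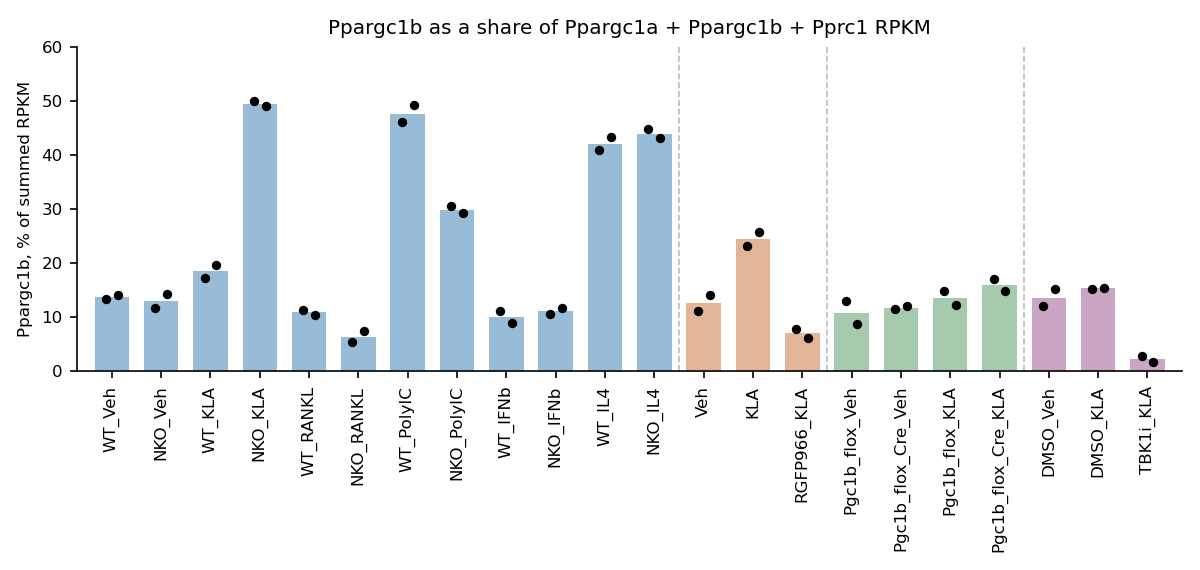
Share of Ppargc1b in the summed RPKM of Ppargc1a, Ppargc1b and Pprc1, in percent, by group. Bars are means of 2 libraries and points are the libraries. The share stands above 40% in NKO_KLA, WT_PolyIC and both IL4 groups and under 10% in RGFP966_KLA, NKO_RANKL and TBK1i_KLA.

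The second comparison asked whether the genes depended on NCoR in each context. Ncor1, the targeted gene, was 162 and 169 CPM in WT_Veh and 56.4 and 57.6 CPM in NKO_Veh. Under Veh none of the 3 tested genes was called. Ppargc1b was 3.73 and 4.62 CPM in NKO_Veh (log2 0.15 ± 0.20), Pprc1 40.8 and 39.7 CPM (log2 0.22 ± 0.07) and Esrra 35.4 and 36.9 CPM (log2 0.032 ± 0.08, and -0.016 with gene totals alone), where 2.40% of genes were called higher and 3.8% lower.

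Ppargc1b was lower in NKO cells under PolyIC and RANKL. Under PolyIC it was 17.4 and 15.5 CPM in NKO against 28.7 and 28.8 CPM in WT, 1.75-fold lower (log2 -0.80 ± 0.13, adjusted p = 2.6e-06 by edgeR), where 2.92% of genes were called lower and 3.01% higher. Under RANKL it was 2.62 and 3.64 CPM against 6.54 and 5.79 CPM, 1.98-fold lower (log2 -0.99 ± 0.22, adjusted p = 0.000168), where 6.99% were called lower and 6.21% higher. The NKO_RANKL libraries thus lay within or below the range of vehicle libraries. IL4 gave 29.5 and 26.5 CPM in NKO against 23.8 and 27.1 CPM in WT (log2 0.14 ± 0.11, adjusted p = 0.462), not called, where 1.90% of genes were called higher and 2.33% lower. IFNb gave 5.46 and 6.17 CPM against 5.44 and 4.26 CPM (log2 0.25 ± 0.19, adjusted p = 0.457), not called, where 1.86% were called higher and 1.94% lower.

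The difference from vehicle was tested as an interaction. The NKO effect on Ppargc1b was lower under PolyIC than under Veh by a log2 difference of -0.95 ± 0.24 (adjusted p = 0.00505 by edgeR), where 1.10% of genes were called lower. Under RANKL the difference was -1.14 ± 0.30 (adjusted p = 0.0022), where 6.97% were, and the culture named for RANKL libraries differs from that of the vehicle libraries. Without NKO_Veh replicate 2 the PolyIC difference was -0.77 with an adjusted p of 0.113. IL4 (-0.011 ± 0.22, with 0.604% of genes called in either direction) and IFNb (0.10 ± 0.27, with 0.604%) gave no called interaction for Ppargc1b. Pprc1 and Esrra were not called in NKO against WT under PolyIC, RANKL, IFNb or IL4, with log2 values from -0.13 to 0.29 for Pprc1 and from -0.20 to -0.022 for Esrra, nor in those interactions. The Pprc1 value under IL4 was 0.024 and turned to -0.050 with gene totals alone.

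Under KLA the largest difference was in Pprc1. It was 28.9 and 29.3 CPM in NKO_KLA against 76.9 and 79.0 CPM in WT_KLA, 2.68-fold lower (log2 -1.42 ± 0.08, adjusted p = 1.00e-22 by edgeR). Both NKO_KLA libraries lay below every WT_Veh library. The interaction was -1.64 ± 0.11 (adjusted p = 2.28e-19), where 17% of genes were called lower. Ppargc1b went the other way, with 20.1 and 19.6 CPM against 11.1 and 13.5 CPM, 1.61-fold higher (log2 0.69 ± 0.16, adjusted p = 0.000115). Its interaction was 0.54 ± 0.26 (adjusted p = 0.0725), not called, but called without WT_Veh replicate 1, NKO_Veh replicate 2 or WT_KLA replicate 2 (0.68, 0.72 and 0.69). Esrra was 72.3 and 74.0 CPM against 95.1 and 103 CPM (log2 -0.43 ± 0.08, adjusted p = 2.88e-06), below the fold threshold, with an interaction of -0.47 ± 0.12 (adjusted p = 0.000487) that was not called either, though it was without WT_Veh replicate 2 (-0.60). Of all genes 21% were called higher and 19% lower, and genotype cannot be told apart from date and sex.

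The NKO_KLA libraries were also set against KLA controls of the other tables in a joint fit. All of these controls carry later date stamps than NKO_KLA, so genotype and date cannot be told apart here either. Pprc1, matched by symbol, was lower with log2 values of -1.52 ± 0.09 against KLA of the RGFP966 table, -1.25 ± 0.09 against Pgc1b_flox_KLA, whose libraries also carry Y-linked transcripts, and -1.91 ± 0.09 against DMSO_KLA, each with an adjusted p of 2.09e-19 or less by edgeR. Ppargc1b gave 0.073 ± 0.15 against KLA of the RGFP966 table, 0.53 ± 0.16 against DMSO_KLA, below the fold threshold, and 1.38 ± 0.17 against Pgc1b_flox_KLA. The Ppargc1b call thus held against 1 of these 3 controls, and it was lost without WT_KLA replicate 1 (0.56). Of the 10864 genes matched by transcript, 23%, 16.2% and 19.2% were called higher and 23.9%, 21.1% and 22.5% lower than the RGFP966, Pgc1b and TBK1i controls. Pprc1 is not among them, since its transcript differs between tables, and shares over the 11776 genes matched by symbol were not counted.

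**Figure D3:**
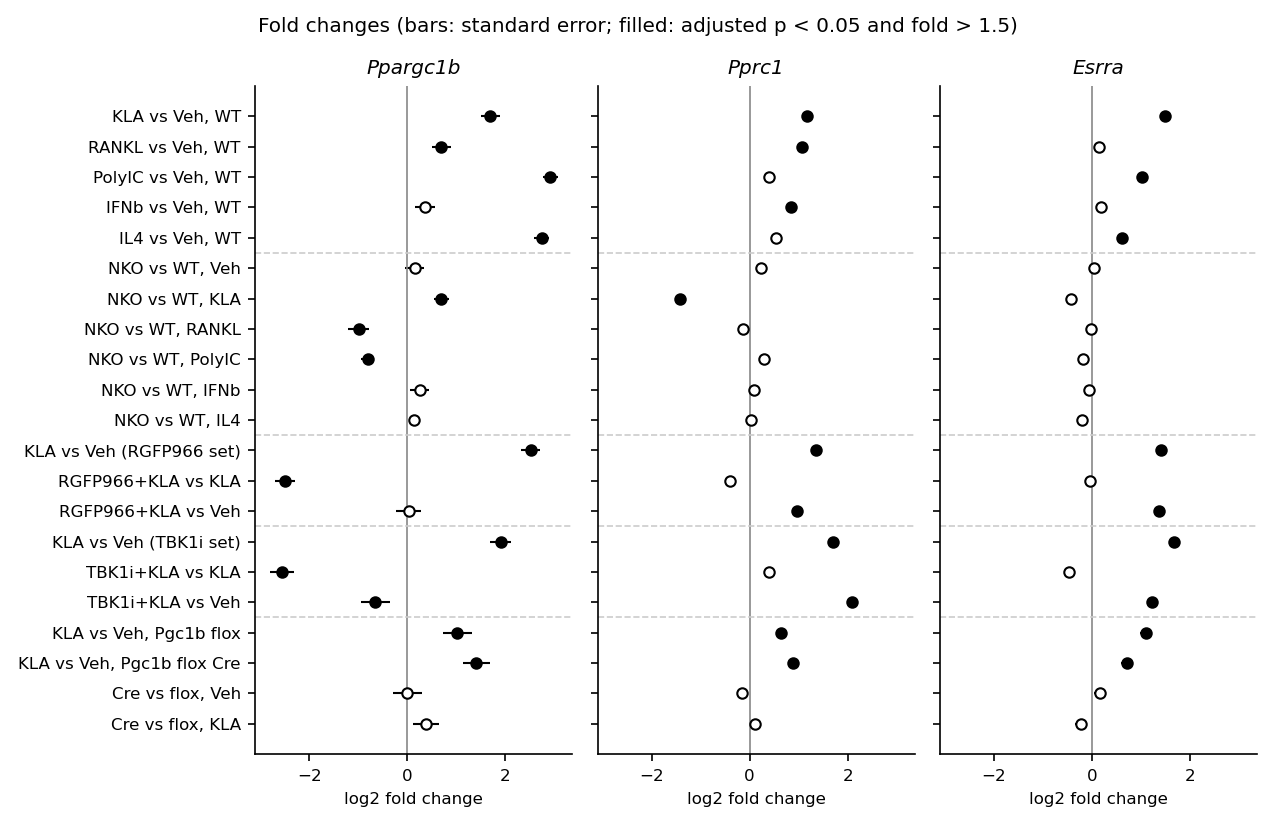
Log2 fold changes of Ppargc1b, Pprc1 and Esrra in 21 comparisons. Points are edgeR estimates, bars are standard errors and filled points were called. Ppargc1b is the gene with called falls under RGFP966 and TBK1i, at -2.49 and -2.55.

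The third comparison asked how levels under KLA differed with the HDAC3 inhibitor. No group received RGFP966 without KLA. A change in the KLA response therefore cannot be told apart from an effect of the inhibitor on the basal level. Ppargc1b, raised by KLA, was back near vehicle with RGFP966. It was 2.30 and 2.98 CPM under Veh and 14.4 and 15.7 CPM under KLA, 5.74-fold higher (log2 2.52 ± 0.19, adjusted p = 1.13e-20 by edgeR), where 27.9% of 12196 genes were called higher and 32.2% lower. With RGFP966 it was 3.09 and 2.25 CPM, 5.63-fold lower than with KLA alone (log2 -2.49 ± 0.21, adjusted p = 7.9e-18), where 9.54% of genes were called lower and 15.8% higher. These libraries overlapped Veh, with a difference of 0.027 ± 0.26 (adjusted p = 0.929) that turned to -0.70 and was called lower with gene totals alone. The 2 RGFP966_KLA libraries carry stamps 14 days apart, and without either the fall was -2.74 or -2.28.

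Pprc1 and Esrra showed no called change with RGFP966. Pprc1 was 26 and 26.1 CPM under Veh, 68.7 and 65.2 CPM under KLA (log2 1.36 ± 0.08) and 52.2 and 49.3 CPM with RGFP966. Its difference from KLA was -0.40 ± 0.08 (adjusted p = 1.83e-05 by edgeR), below the fold threshold. RGFP966_KLA was called above Veh for Pprc1 (log2 0.96 ± 0.08, with 28.0% of genes called higher and 26.3% lower), though not with gene totals alone (0.23). Esrra was 25.8 and 24.2 CPM under Veh, 64.1 and 68.9 CPM under KLA (log2 1.41 ± 0.08) and 63.1 and 66.4 CPM with RGFP966, which overlapped KLA (log2 -0.040 ± 0.08, adjusted p = 0.697). The Ppargc1b share of PGC1 RPKM was 23.2% and 25.7% under KLA and 7.84% and 6.14% with RGFP966.

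The fourth comparison asked the same of the TBK1 inhibitor, and Ppargc1b fell here too. This inhibitor was not given without KLA either, so the same limit holds. It was 3.26 and 3.75 CPM in DMSO_Veh and 13.5 and 12.7 CPM in DMSO_KLA, 3.73-fold higher (log2 1.90 ± 0.21, adjusted p = 9.13e-20 by edgeR), where 29.6% of 12332 genes were called higher and 29.3% lower. In TBK1i_KLA it was 2.71 and 1.69 CPM, 5.87-fold lower than DMSO_KLA (log2 -2.55 ± 0.25, adjusted p = 3.37e-23), where 18.3% were called lower and 15.0% higher. TBK1i_KLA libraries lay below both DMSO_Veh libraries (log2 -0.65 ± 0.29, adjusted p = 0.0344, with 30.5% called lower and 26.8% higher), on counts of 27 and 15. DESeq2 gave this last difference an adjusted p of 0.0922, and it was not called without DMSO_Veh replicate 2 (-0.55) or TBK1i_KLA replicate 2 (-0.37).

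Pprc1 was highest in TBK1i_KLA. It was 34.3 and 30.0 CPM in DMSO_Veh, 108 and 100.4 CPM in DMSO_KLA (3.23-fold, log2 1.69 ± 0.07) and 137 CPM in both libraries of TBK1i_KLA. The difference of TBK1i_KLA from DMSO_KLA was 0.40 ± 0.06 (adjusted p = 4.01e-10 by edgeR), below the fold threshold with TMM and called with gene totals alone (0.76). Against DMSO_Veh, TBK1i_KLA was 4.26-fold higher (log2 2.09 ± 0.07). Esrra was 30.6 and 32.3 CPM in DMSO_Veh, 101 and 100.2 CPM in DMSO_KLA (3.20-fold, log2 1.68 ± 0.07) and 73.9 and 72.6 CPM in TBK1i_KLA. Its difference from DMSO_KLA was -0.46 ± 0.07 (adjusted p = 2.52e-10), below the fold threshold and -0.092 with gene totals alone, and it was called above DMSO_Veh (log2 1.22 ± 0.08). Whether the effects of RGFP966 and TBK1i differ was not tested.

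The fifth comparison used Pgc1b flox/flox cells, in which Ppargc1b is the targeted gene. Ppargc1b was 4.38 and 2.88 CPM without Cre and 3.75 and 3.41 CPM with Cre under Veh (log2 -0.0047 ± 0.29). Under KLA it was 7.80 and 6.78 CPM without Cre and 10.3 and 8.73 CPM with Cre (log2 0.38 ± 0.27, adjusted p = 0.275 by edgeR). Its counts were thus not called lower in Cre cells, but they run over all exons, so they do not show whether a floxed part was lost. The paper examined PGC1β protein in BMDMs of both genotypes by immunoblot. Lyz2, whose locus drives the Cre, was 8104 and 8321 CPM without Cre and 4395 and 4420.1 CPM with Cre under Veh.

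KLA raised the 3 tested genes in both genotypes of the Pgc1b table. Without Cre the log2 changes were 1.02 ± 0.29 for Ppargc1b (adjusted p = 0.00239 by edgeR), 0.64 ± 0.10 for Pprc1 and 1.10 ± 0.13 for Esrra, where 22.8% of 12205 genes were called higher and 25.7% lower. With Cre they were 1.41 ± 0.27, 0.89 ± 0.10 and 0.71 ± 0.12, where 19.2% were called higher and 20.6% lower. Pprc1 went from 42.2 and 43.5 CPM to 64.0 and 69.6 CPM without Cre, and from 41.1 and 35.8 CPM to 71.6 CPM in both libraries with Cre. Esrra went from 29.2 and 35.8 CPM to 76.9 and 62.5 CPM without Cre, and from 40.7 and 32.2 CPM to 65.3 and 54.1 CPM with Cre. Of these 6 responses 5 lost their call with gene totals alone, and Ppargc1b with Cre (0.94) kept it. The 5 values were -0.057 for Pprc1, 0.33 for Ppargc1b and 0.41 for Esrra without Cre, and 0.43 for Pprc1 and 0.24 for Esrra with Cre. Without Pgc1b_flox_Veh replicate 2 the Ppargc1b response without Cre was 0.74 with an adjusted p of 0.0766. Without Pgc1b_flox_KLA replicate 2 Pprc1 without Cre (0.57), and without Pgc1b_flox_Cre_Veh replicate 2 Esrra with Cre (0.55), fell below the fold threshold.

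No Cre effect and no interaction was called for the 3 genes. Under KLA the Cre effect was 0.10 ± 0.10 for Pprc1 and -0.23 ± 0.12 for Esrra, where 13.2% of genes were called higher and 12.9% lower. Under Veh 0.303% of genes were called in either direction. The interactions were 0.38 ± 0.40 for Ppargc1b, 0.26 ± 0.14 for Pprc1 and -0.39 ± 0.18 for Esrra, where 22.8% of genes were called in either direction.

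The 4 control sets gave KLA responses of unequal size. In a joint fit of their vehicle and KLA libraries, the log2 response of Ppargc1b was 2.51 ± 0.21 in the RGFP966 table, 1.80 ± 0.21 in the TBK1i table, 1.68 ± 0.23 in the NCoR table and 0.96 ± 0.24 in the Pgc1b table. Of the 6 pairs of tables, RGFP966 minus Pgc1b was called (1.55 ± 0.32, adjusted p = 0.000189 by edgeR). Without Pgc1b_flox_Veh replicate 2, NCoR minus Pgc1b (0.91) and Pgc1b minus TBK1i (-1.05) were called too. Matched by symbol, Pprc1 responded more in the other 3 tables than in the Pgc1b table, by 0.59 ± 0.13 for NCoR (adjusted p = 0.000235) and 0.79 ± 0.12 for RGFP966 (adjusted p = 2.34e-06). Pgc1b minus TBK1i was -1.02 ± 0.12 (adjusted p = 7.91e-09). The first of these Pprc1 differences lay near the fold threshold and was lost when WT_Veh replicate 1, WT_KLA replicate 2, either Pgc1b_flox_Veh replicate or Pgc1b_flox_KLA replicate 1 was left out (lowest 0.45), and also with gene totals alone (0.50). Esrra gave no called pair, its responses running from 1.03 ± 0.10 in the Pgc1b table to 1.58 ± 0.10 in the TBK1i table. Without Pgc1b_flox_KLA replicate 1 its NCoR minus Pgc1b (0.60) and Pgc1b minus TBK1i (-0.71) differences were called, the latter also without Pgc1b_flox_Veh replicate 1 (-0.60). The Pgc1b libraries differ from the others in genotype, sex and date stamp, which cannot be told apart here. In the NCoR table the KLA response itself cannot be told apart from date stamp.

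Over all genes matched by transcript, the response was called different in 7.11% for NCoR minus RGFP966, 21.5% for NCoR minus Pgc1b, 10.2% for NCoR minus TBK1i, 15.6% for RGFP966 minus Pgc1b, 4.73% for RGFP966 minus TBK1i and 14.3% for Pgc1b minus TBK1i. Matched by symbol the shares were 7.01%, 21.3%, 10.1%, 15.4%, 4.73% and 14.1% in the same order.

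Transcription factors that PGC1 proteins dock on were called in both directions, at about the shares of all genes under KLA. Of 13 partners 10 were tested in each table. Under KLA in WT cells there were 2 of 10 higher and 3 lower beside 25.4% and 32.3% of all genes (median 0.36, all genes -0.14). Gabpb1, a subunit of NRF2/GABP, rose by 1.26 ± 0.13 and Srebf1, a lipogenic factor, by 0.86 ± 0.07, whereas the lipid-sensing receptor gene Pparg fell by 2.33 ± 0.10 on the log2 scale and Rxra, its dimer partner, by 3.13 ± 0.13. With gene totals alone the partners under KLA were 0 higher and 4 lower, so that the rises rest on TMM. PolyIC gave 2 of 10 higher and 4 lower beside 22.2% and 25.0% of all genes (median -0.072, all genes -0.071), led by Srebf1 (2.10 ± 0.06) and Gabpb1 (1.39 ± 0.12) upward and by Rxra (-2.91 ± 0.12) and Ppard (-1.33 ± 0.14) downward. RANKL gave 0 of 10 higher and 3 lower beside 24.1% and 19.8% of all genes (median 0.027, all genes 0.020), including Pparg (-1.46 ± 0.07) and Foxo1 (-1.13 ± 0.11). Under IL4 and IFNb edgeR called 0 of 10 partners, as did DESeq2, while at an unadjusted p under 0.05 there were 4 higher and 2 lower under IL4 and 3 higher and 2 lower under IFNb. The shares of all genes called there were 6.63% higher and 6.46% lower under IL4 and 4.09% and 2.37% under IFNb.

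Levels of Pparg and Rxra show the scale of the falls. Pparg was 89.2 and 81.3 CPM in WT_Veh and 17 and 16.8 CPM under KLA, and Rxra went from 87.5 and 83.6 CPM to 11.3 and 8.16 CPM. Under KLA in the RGFP966, Pgc1b flox/flox and TBK1i tables Pparg changed by -2.66 ± 0.09, -3.30 ± 0.15 and -2.77 ± 0.11 and Gabpb1 by 1.50 ± 0.11, 0.80 ± 0.17 and 1.24 ± 0.12, all called with TMM. Gene totals alone shift the median of all genes there by -0.77, -0.69 and -0.78, so the size of the Gabpb1 rises depends on the scaling. With RGFP966 the partners were 0 of 10 higher and 3 lower beside 15.8% and 9.54% of all genes (median -0.12, all genes 0.026) against KLA alone, including Hcfc1 (-0.80 ± 0.07), a chromatin cofactor, and Pparg (-0.69 ± 0.13). With TBK1i they were 3 of 10 higher and 1 lower beside 15.0% and 18.3% of all genes (median 0.34, all genes 0.012) against DMSO_KLA, with Nrf1 at 0.75 ± 0.11, Foxo1 at 0.68 ± 0.14 and Pparg at -0.96 ± 0.19.

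Enzymes and cofactors that regulate PGC1 proteins numbered 15, of which 14 or 15 were tested in each table. KLA in WT cells gave 3 of 15 higher and 2 lower beside 25.4% and 32.3% of all genes (median 0.23, all genes -0.14), with the Mediator subunit gene Med1 at 1.62 ± 0.07 and Prkaa2, a catalytic subunit of AMPK, at 0.98 ± 0.43 on a low level of 1.24 and 1.09 CPM in WT_Veh. Without TMM the regulators under KLA were 1 higher and 6 lower. The p38 kinase gene Mapk14 was at -0.63 ± 0.07 and the kinase gene Clk2 at -0.72 ± 0.12. PolyIC gave 5 of 15 higher and 1 lower beside 22.2% and 25.0% of all genes (median 0.45, all genes -0.071), with Sirt1, a deacetylase that acts on PGC1α, at 1.54 ± 0.08 and Med1 at 1.48 ± 0.07. Under IL4 the sole call was Prkaa2 (1.90 ± 0.31), beside 6.63% of all genes called higher, and under IFNb edgeR and DESeq2 called 0 of 15 (2 higher and 3 lower at an unadjusted p under 0.05). RANKL gave 3 of 15 higher and 4 lower beside 24.1% and 19.8% of all genes (median -0.0076, all genes 0.020), with Prkaa2 at 1.66 ± 0.32 and Prmt1, an arginine methyltransferase, at 1.32 ± 0.09 against Ncoa1, a p160 coactivator, at -1.06 ± 0.07 and Nrip1, a corepressor of nuclear receptors, at -0.78 ± 0.11.

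RGFP966 with KLA gave 2 of 15 higher and 1 lower beside 15.8% and 9.54% of all genes (median -0.15, all genes 0.026) against KLA alone, with Prkaa2 at 2.25 ± 0.29, Mapk14 at 1.07 ± 0.07 and Nrip1 at -1.12 ± 0.11. TBK1i with KLA gave 5 of 15 higher and 3 lower beside 15.0% and 18.3% of all genes (median 0.32, all genes 0.012) against DMSO_KLA, with Nrip1 at 0.84 ± 0.09 and Crtc2, a CREB coactivator, at 0.69 ± 0.06 against Ncoa1 at -1.93 ± 0.09 and the acetyltransferase gene Kat2a at -1.38 ± 0.12. In NKO cells Prmt1 was called lower under RANKL (-0.65 ± 0.09) and the partner Rxra higher under PolyIC (0.61 ± 0.16), a call that DESeq2 did not make. Under KLA, where genotype cannot be told apart from date and sex, the regulators were 1 of 15 higher and 4 lower beside 21% and 19% of all genes (median -0.15, all genes 0.070), Prmt1 being higher there (1.27 ± 0.10) and Prkaa2 (-3.30 ± 0.62) and Nrip1 (-1.54 ± 0.14) lower. The partners in that comparison were 1 of 10 higher and 4 lower beside 21% and 19% of all genes (median -0.32, all genes 0.070), with Srebf1 at 0.92 ± 0.06, Yy1, a zinc-finger factor, at -1.10 ± 0.08 and Gabpa, the DNA-binding subunit of GABP, at -0.91 ± 0.08. With Cre under KLA, 5 of 14 regulators were called higher and 1 lower than without Cre, beside 13.2% and 12.9% of all genes. Their median was -0.011 (all genes -0.00039), with Sirt1 at 1.24 ± 0.13, Mapk14 at 1.12 ± 0.07 and Ncoa1 at -1.35 ± 0.10. Of 10 partners 3 were higher and 1 lower (median 0.14), with Pparg at 0.91 ± 0.18, Foxo1 at 0.78 ± 0.19 and Ppard at -1.28 ± 0.17. Under Veh 0 of either list were called, beside 0.303% of all genes.

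The last list was of mitochondrial genes known as PGC1 and ERR targets. It holds 20 genes, of which 20 were tested in the NCoR and TBK1i tables, 18 in the RGFP966 table and 19 in the Pgc1b table. Under IL4 there were 0 of 20 higher and 0 lower beside 6.63% and 6.46% of all genes (median 0.22, all genes -0.012) by edgeR. DESeq2 also called 0, and 9 higher and 1 lower had an unadjusted p under 0.05. PolyIC gave 3 of 20 higher and 2 lower beside 22.2% and 25.0% of all genes (median 0.013, all genes -0.071), KLA 4 of 20 higher and 5 lower beside 25.4% and 32.3% of all genes (median 0.18, all genes -0.14), IFNb 1 of 20 higher and 1 lower beside 4.09% and 2.37% of all genes (median -0.0079, all genes -0.00018) and RANKL 9 of 20 higher and 1 lower beside 24.1% and 19.8% of all genes (median 0.42, all genes 0.020). With gene totals alone PolyIC gave 1 higher and 10 lower and KLA 1 higher and 8 lower, so that the split of these counts rests on the scaling, whereas RANKL gave 10 higher and 0 lower. Cox5a, a subunit of cytochrome oxidase, rose by 1.18 ± 0.07 under KLA and 0.91 ± 0.06 under PolyIC. Sirt3, the mitochondrial deacetylase, fell by 1.54 ± 0.26 and Acadm, a medium-chain acyl-CoA dehydrogenase, by 1.44 ± 0.10 under PolyIC on the log2 scale. Under RANKL the largest rises were Cycs (1.57 ± 0.33) and Idh3a, a subunit of isocitrate dehydrogenase (1.53 ± 0.08), and Ucp2, an uncoupling protein gene, was called lower (-0.65 ± 0.05). For these targets too, RANKL cannot be told apart from time, date stamp and named culture. The part of the neutrophil, fibroblast, B cell and T cell markers in these counts was not tested.

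Some of these values rest on few reads. Cycs, cytochrome c, was higher under KLA (3.07 ± 0.32) and PolyIC (2.67 ± 0.31), but it was counted at 1.38 and 0.616 CPM in WT_Veh and has processed copies in the mouse genome that could split its reads. Pdk4, which restrains glucose oxidation, went from 1.51 and 1.50 CPM in WT_Veh to 0 counts in both WT_KLA libraries, so no fold is given. Cpt1b, the muscle form of carnitine palmitoyltransferase, went from 0.688 and 0.821 CPM to 0.164 and 0 CPM. With TMM, Sirt3 (-2.29 ± 0.34, -2.22 ± 0.40 and -1.87 ± 0.28) and Cox5a (1.35 ± 0.07, 0.90 ± 0.09 and 1.63 ± 0.06) were called under KLA in the RGFP966, Pgc1b flox/flox and TBK1i tables too. Gene totals alone lower KLA values there, as given above, so the size of the Cox5a rises depends on the scaling.

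Each inhibitor gave 4 called targets against its KLA control, near or below the shares over all genes. With RGFP966 there were 2 of 18 higher and 2 lower beside 15.8% and 9.54% of all genes (median -0.18, all genes 0.026), Sirt3 at 1.11 ± 0.41 and the mitochondrial transcription factor gene Tfb1m at 0.82 ± 0.21 against Cycs at -0.90 ± 0.23 and Ucp2 at -0.73 ± 0.06. With TBK1i there were 1 of 20 higher and 3 lower beside 15.0% and 18.3% of all genes (median -0.18, all genes 0.012) against DMSO_KLA, Tfb2m at 1.03 ± 0.27 against Cycs (-1.28 ± 0.30) and Tfb1m (-1.10 ± 0.28). In NKO against WT, edgeR called 0 of 20 targets under Veh, PolyIC, RANKL, IFNb or IL4, and DESeq2 called 0 as well. Shares of all genes called in these comparisons were also low, as given above, at 1.86% to 6.21% higher and 1.94% to 6.99% lower. At an unadjusted p under 0.05 the targets were 2 higher and 1 lower under PolyIC, 2 higher and 8 lower under RANKL, 3 higher and 4 lower under Veh, 4 higher and 1 lower under IFNb and 3 higher and 3 lower under IL4. At KLA there were 8 of 20 higher and 3 lower beside 21% and 19% of all genes (median 0.40, all genes 0.070), where genotype cannot be told apart from date and sex. In Cre against no Cre edgeR called 0 of 19 under Veh (DESeq2 also 0, 1 higher and 0 lower at an unadjusted p under 0.05) and 1 under KLA (Cycs -1.56 ± 0.45), where 12.9% of all genes were called lower.

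**Figure D4:**
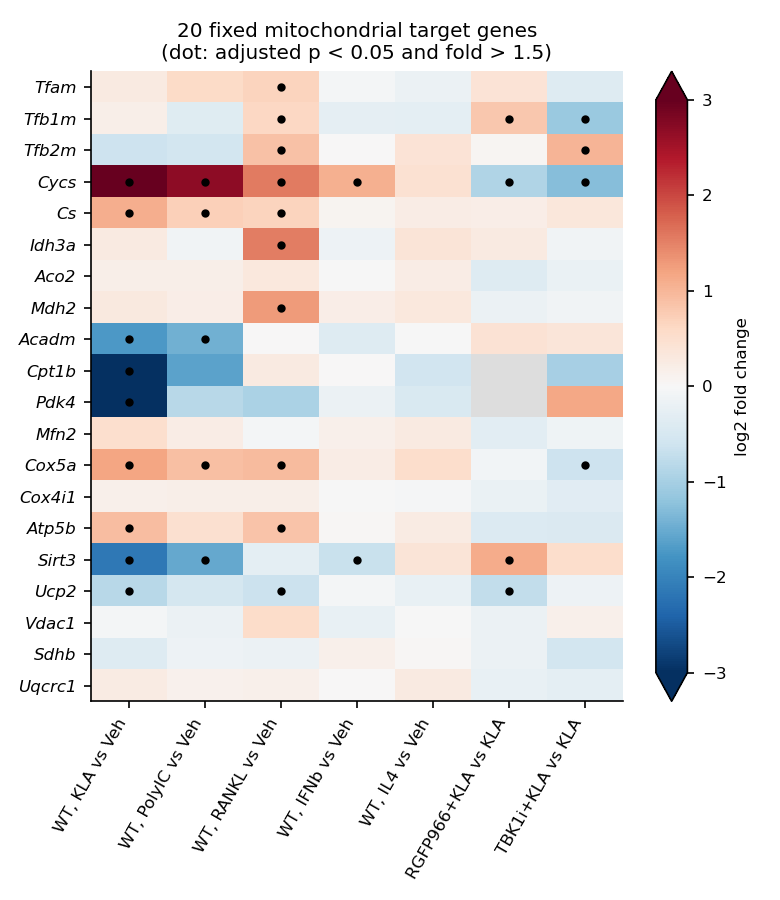
Log2 fold changes of 20 mitochondrial target genes in 7 comparisons. Red is higher and blue lower, the color scale stops at 3 in either direction, gray marks a gene not tested, and dots mark calls. The IL4 column holds no dot, whereas the RANKL column holds 10. RANKL libraries differ from vehicle libraries also in time, date stamp and named culture.

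The genes that moved most like each member were found by Pearson correlation of log2(CPM + 1) over the 22 group means, each centred on its table, among 9669 genes. These are descriptions over points that share tables and scaling. For Ppargc1b they were Bbx (r = 0.919), the sulfotransferase gene Chst7 (0.896) and Rbbp6 (0.882). Chst7 was 4.53 ± 0.274 CPM (SD, n = 2) in WT_Veh, 26.4 ± 0.665 CPM under PolyIC and 42.4 ± 2.39 CPM under IL4. For Pprc1 they were the splicing factor gene Hnrnpf (0.932), the m6A reader gene Ythdf2 (0.902) and Chtf8 (0.901), and for Esrra N4bp1 (0.979), Rab10 (0.976) and the kinase gene Jak2 (0.974). Without TMM these correlations ran from 0.547 (Rbbp6) to 0.923 (Rab10). Between members r was 0.640 for Ppargc1b with Esrra, 0.556 for Pprc1 with Esrra and 0.112 for Ppargc1b with Pprc1, and 0.468, 0.270 and -0.200 without TMM.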

How the data were processed

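Libraries of poly(A) RNA with a dUTP-marked strand were analysed from 4 tables of raw counts deposited by the authors, who aligned reads to mm10 with STAR and counted exon reads per gene with HOMER without normalization, keeping 1 transcript per gene. STAR, HOMER, DESeq2 and mm10 are named in the submitters' processing notes. The 44 libraries were mapped to 22 groups by their labels.

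Each table was fitted with edgeR 4.0.16 in R 4.3.3 (TMM, filterByExpr, robust quasi-likelihood F-test, 2-sided, Benjamini-Hochberg over all genes tested: 13407, 12196, 12205 and 12332 in the NCoR, RGFP966, Pgc1b and TBK1i tables). Calls needed a fold change above 1.5 and an adjusted p under 0.05. Replicates of a group correlated at r = 0.985 or more across genes, and none agreed within sampling noise. RPKM used the transcript lengths in the tables. Joint fits across tables matched genes by transcript, or by symbol for Pprc1. In simulated counts for PolyIC against Veh in WT cells (12878 genes tested), 80 of 98 genes changed 2-fold and 90 of 100 changed 3-fold were called, with 3 unchanged genes called. The simulation changed few genes, about as many up as down, and drew its spread from the fit itself. It therefore checks the code alone and gives no error rate for the calls in these data, where many more genes changed.

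The 4 genes and the partner, regulator and target lists were chosen with earlier results of these data known. Named were the 4 genes in every contrast, Ncor1 and Lyz2 as label checks, from each list and contrast described the 2 called genes with the largest rise and the 2 with the largest fall, and the 3 genes most correlated with each member (log2(CPM + 1), genes averaging at least 5 CPM). Levels of Pparg, Rxra and other listed genes, and the KLA values in further tables, were picked after seeing them. Alternatives were DESeq2 1.42.0 and its size factors, no filter, a mean of 5 CPM, fits of the compared groups, a block on the replicate number, leaving out each replicate, no fold threshold and other KLA controls. Gene totals without TMM, the symbol match and tests in left-out fits were added after seeing the data. Promoters came from the RefSeq table, in which 3 of the 4 genes matched. Figures were drawn with matplotlib 3.10.9.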

Additional observations from a re-analysis of the deposited data

Results flagged for a closer look

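Several results differed between groups by a test of the difference itself. The NKO effect on Pprc1 was lower under KLA than under vehicle by a log2 difference of -1.64, in libraries where genotype cannot be told apart from date and sex. The NKO effect on Ppargc1b was lower than under vehicle by -1.14 under RANKL, whose libraries are named as another culture, and by -0.95 under PolyIC, a call lost without NKO_Veh replicate 2 (-0.77, adjusted p = 0.113 by edgeR).

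KLA responses of control cells also differed between tables, though in the NCoR table KLA cannot be told apart from date stamp. Ppargc1b responded more in the RGFP966 table than in the Pgc1b table by a log2 difference of 1.55. Pprc1 responded more in the NCoR table than in the Pgc1b table by 0.59, a call lost in 5 of 8 fits that left out 1 library and with gene totals alone (0.50). It responded more in the RGFP966 table than in the Pgc1b table by 0.79, and its response in the Pgc1b table minus that in the TBK1i table was -1.02.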

How the results depend on the processing

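Of 1239 values under other settings for 102 results on the 3 tested genes, 1151 kept direction and side of the threshold, and among the 40 called results 1 turned direction, Pprc1 under KLA without Cre with gene totals alone. The replicate block changed no call, Ppargc1b under PolyIC being 2.91 with it, and the numbers do not pair samples, since same-numbered deviations correlated at -0.0596 to 0.0591 over the tables. Without a fold threshold these values were called: Esrra -0.47 for the KLA interaction, -0.43 for NKO under KLA, -0.46 for TBK1i against DMSO_KLA and Pprc1 -0.36 for the RANKL interaction, 0.29 for NKO under PolyIC, 0.22 for NKO under Veh, -0.40 for RGFP966 against KLA, 0.40 for TBK1i against DMSO_KLA, 0.54 for IL4 in WT, 0.40 for PolyIC in WT. Gene totals alone gave Esrra 0.24 for KLA with Cre, 0.41 for KLA without Cre, -0.016 for NKO under Veh, 0.39 for PolyIC in WT, Ppargc1b 0.33 for KLA without Cre, -0.70 for RGFP966_KLA against Veh, and Pprc1 0.43 for KLA with Cre, -0.057 for KLA without Cre, 0.50 for the KLA response of NCoR minus Pgc1b, -0.050 for NKO under IL4, 0.23 for RGFP966_KLA against Veh, 0.76 for TBK1i against DMSO_KLA, 0.45 for KLA in WT, -0.25 for PolyIC in WT. With other KLA controls NKO_KLA differed by 0.073 (RGFP966 table) and 0.53 (TBK1i table) for Ppargc1b and by 0.010 (Pgc1b table) for Esrra. Ppargc1b in RGFP966_KLA against Veh changed sign at -0.0088 with DESeq2 size factors, -0.012 by DESeq2, -0.047 without a filter, -0.062 at a mean of 5 CPM and -0.022 with the compared groups alone. DESeq2 gave -0.67 for Ppargc1b in TBK1i_KLA against DMSO_Veh, no longer called. The highest over lowest group mean was 3.47 with joint TMM and 2.18 without TMM for Esrra, and 4.94 and 6.71 for Pprc1. Apart from the scaling, the cause of these shifts was not tested.

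Leaving out 1 library at a time gave Esrra 0.55 to 0.89 for KLA with Cre, -0.018 to 0.32 for Cre under Veh, -0.23 to 0.027 for the IFNb interaction, -0.60 to -0.34 for the KLA interaction, -0.19 to 0.069 for the RANKL interaction, 0.18 to 0.60 for the KLA response of NCoR minus Pgc1b, -0.038 to 0.22 for the KLA response of NCoR minus RGFP966, -0.25 to 0.0061 for the KLA response of NCoR minus TBK1i, -0.71 to -0.31 for the KLA response of Pgc1b minus TBK1i, -0.13 to 0.10 for NKO under RANKL, -0.091 to 0.17 for NKO under Veh, -0.090 to 0.0038 for RGFP966 against KLA, 0.50 to 0.75 for IL4 in WT. For Ppargc1b the ranges were -0.29 to 0.31 for Cre under Veh, 0.74 to 1.34 for KLA without Cre, -0.054 to 0.30 for the IFNb interaction, -0.16 to 0.17 for the IL4 interaction, 0.40 to 0.72 for the KLA interaction, -1.10 to -0.77 for the PolyIC interaction, 0.31 to 0.91 for the KLA response of NCoR minus Pgc1b, -0.27 to 0.0073 for the KLA response of NCoR minus TBK1i, -1.05 to -0.45 for the KLA response of Pgc1b minus TBK1i, 0.56 to 0.83 for NKO under KLA, -0.029 to 0.29 for NKO under Veh, -0.22 to 0.24 for RGFP966_KLA against Veh, -1.05 to -0.37 for TBK1i_KLA against DMSO_Veh, 0.56 to 0.84 for RANKL in WT. For Pprc1 they were 0.57 to 0.70 for KLA without Cre, -0.031 to 0.16 for the PolyIC interaction, 0.45 to 0.65 for the KLA response of NCoR minus Pgc1b, 0.45 to 0.64 for IL4 in WT. Over all genes, 17 of 27 counts of higher calls and 17 of lower calls grew by more than 1.5 times without a fold threshold, such as 1291 for 322 higher and 1399 for 510 lower for NKO under Veh. With gene totals alone 11 and 10 moved as far, such as 1846 for 3408 higher and 7347 for 4336 lower for KLA in WT, 1762 for 2974 and 6930 for 3357 for PolyIC, 1494 for 2787 and 6557 for 3133 for KLA without Cre, and 3987 for 1852 and 1429 for 2260 for TBK1i against DMSO_KLA. Others were 515 for 833 higher for NKO under RANKL at a mean of 5 CPM, 305 for 510 lower for NKO under Veh and 33 for 20 higher for Cre under Veh with the compared groups alone, and by DESeq2 9 for 20 higher for Cre under Veh, 112 for 74 higher and 1 for 7 lower for the IFNb interaction and 22 for 34 lower for the IL4 interaction. Ppargc1a and other genes near 3 counts per library were beyond what this depth can compare.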
